A study of Mus musculus with 59 samples.

Results

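Immediate early genes and NR4A receptor genes were followed in mouse brown adipose tissue (BAT), and they were taken by name from the deposited count tables, as 10 of the 55341 genes listed there. They are Fos, Fosb, Jun, Junb and Atf3, which encode subunits of the AP-1 family of dimeric transcription factors or, for Atf3, a related leucine zipper protein, Egr1 and Ier2, and the orphan nuclear receptor genes Nr4a1, Nr4a2 and Nr4a3. All 10 passed the filter on low counts in every comparison. No measured value was used to choose them, but they were chosen with earlier results of these data known.

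The products of immediate early genes are made within minutes of a signal, because their promoters are already occupied by factors such as CREB, which is phosphorylated by protein kinase A, and SRF with its ELK and MRTF partners. Their transcripts are short-lived, and the proteins FOS, JUN and EGR1 then act on a later set of genes. In brown adipocytes, noradrenaline released in the cold raises cAMP through adrenergic receptors, and the NR4A receptors, which bind DNA without a known hormone, are classical early targets of this pathway. The same genes respond to growth factors, to stress and to the handling of tissue.

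The mice were male C57BL/6J animals of 8 to 12 weeks, and each of the 59 mice gave a separate library. In the thyroid hormone (TH) experiment, wild-type (WT) mice were made hypothyroid with propylthiouracil (PTU) in the food and were taken without hormone or 3, 6, 12 or 24 h after a single injection of T3 and T4, with 4 mice per group. This experiment also had 5 BATKO mice under PTU and 5 BATKO mice taken 24 h after TH. In the temperature experiment, whose table is named for 24 h, control (CTRL) mice were at 4 °C (3 mice) or 30 °C (4 mice), and BATKO mice at 4 °C (4 mice) or 30 °C (5 mice). In the diet experiment, whose table is named for 3.5 days, 4 CTRL mice were on a high-fat diet (HFD) and 4 on chow, beside 3 BATKO mice on HFD and 2 on chow. The alleles behind the genotype called BATKO, and the breeding of the CTRL mice, are not given in the sources used here, so that what the genotype removes, and in which cells, could not be stated.

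Between 7612059 and 18073627 reads per library were assigned to genes, of which 39.2% to 55.7% fell on the mitochondrial genome. The 5 BATKO libraries under PTU held 14681206 to 18073627 reads, more than any WT library (7805938 to 14615534), so that genotype and library depth cannot be told apart there. The summed level of 5 brown adipocyte markers was 5670 to 27400 CPM (counts scaled to the library size), with none of them at 0 in any group. The summed level of 5 skeletal muscle markers went from 0.399 to 7550 CPM between mice, and varied within groups, with the highest values in a pair of BATKO mice at 30 °C. Values below are normalized counts, that is, counts scaled to the mean effective library of their experiment, and they cannot be compared between experiments. Those of the TH experiment were scaled over all 30 of its mice, whereas its WT comparisons were fitted on the 20 WT mice. A gene was called when the adjusted p of edgeR's quasi-likelihood test was under 0.05. In whole tissue, fewer cells of a type and less RNA per cell cannot be told apart.

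The stretches upstream of the RefSeq starts of Fos and of the 3 NR4A genes are shown because they hold the core letters of the cAMP response element, TGACG, more than once. These letters were searched on both strands, from 250 bases before to 50 bases after the start, and capitals mark them (CGTCA is the same core on the other strand). RefSeq windows of the GRCm38.p6 build were at hand for 8 of the 10 genes, and Egr1 and Ier2 had no entry. Each line reads 5′ to 3′ on the strand of the gene.
Fos, chr12:85473751-85473838, plus strand: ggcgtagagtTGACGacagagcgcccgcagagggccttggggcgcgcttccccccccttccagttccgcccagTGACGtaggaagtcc
Nr4a1, chr15:101266603-101266820, plus strand: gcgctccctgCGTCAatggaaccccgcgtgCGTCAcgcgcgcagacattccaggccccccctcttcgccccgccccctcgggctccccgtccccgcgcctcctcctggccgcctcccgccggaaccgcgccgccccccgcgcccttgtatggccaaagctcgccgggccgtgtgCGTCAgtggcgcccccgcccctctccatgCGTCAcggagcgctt
Nr4a2, chr2:57124100-57124213, minus strand: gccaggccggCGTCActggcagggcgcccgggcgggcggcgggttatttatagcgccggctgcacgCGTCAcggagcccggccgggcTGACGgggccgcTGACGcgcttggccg
Nr4a3, chr4:48045064-48045172, plus strand: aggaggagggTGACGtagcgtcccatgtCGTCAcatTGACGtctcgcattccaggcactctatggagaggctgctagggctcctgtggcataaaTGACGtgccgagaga

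The Nr4a1 start used by RefSeq lies inside an intron of a longer GENCODE transcript, and the end of the Nr4a3 stretch runs into the first GENCODE exon of that gene. The core TGACG was found in 7 of the 8 windows, against 20.8% of all 32851 windows of this length. Nr4a1, Nr4a2 and Nr4a3 each held 4 copies, a number reached by 0.231% of all windows. Fos held 2 copies, as did or exceeded 5.01% of all windows, while Fosb, Junb and Atf3 held 1 and Jun none. None of the 8 windows held the complete cAMP response element, in which the core TGACG is followed by TCA (1.79% of all windows). A complete element reads as a core on each strand, so that it counts as 2 copies in the shares above. Nor did any of the 8 hold the AP-1 letters TGANTCA (7.81%), the CArG box bound by SRF (1.63%), the NBRE letters of NR4A receptors, AA before AGGTCA (1.51%), or the DR4 element of thyroid hormone receptors, AGGTCA before and after NNNN (0.0152%). The windows of all genes were not matched to these 8 for their content of CG, letters that the core holds, so that the shares do not set these genes apart from other CG-rich starts. These matches only describe letters in these windows.

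In the cold, 7 of the 10 genes were lower at 4 °C than at 30 °C in CTRL mice (Fos, Jun, Junb, Egr1, Atf3, Nr4a1 and Ier2), and none was higher, whereas 22.6% of the 13267 genes tested were called lower. The median log2 difference of the 10 genes was -2.25, beside -0.01 over all genes tested. In 6 of the 10, every mouse at 4 °C was below every mouse at 30 °C, a pattern shown by 23.7% of all genes. In BATKO mice, 5 genes were lower at 4 °C (Jun, Junb, Egr1, Atf3 and Ier2), beside 18.9% of all genes, and none was higher. There the median difference was -1.62, beside -0.02 over all genes, and in 4 of the 10 genes (Egr1, Ier2, Jun and Junb) every mouse at 4 °C was below every mouse at 30 °C, as in 14.3% of all genes. No group was kept at another temperature, so that a lower level at 4 °C cannot be told apart from a raised level at 30 °C. For this experiment, fell, rose and cold response stand only for the difference of 4 °C from 30 °C.

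Egr1, a zinc finger transcription factor, had the strongest difference. The CTRL mice at 30 °C had 1930, 2400, 9980 and 13900 normalized counts, and those at 4 °C had 335, 481 and 888. In BATKO mice, the values were 3200, 4260, 5050, 5750 and 8380 at 30 °C and 366, 695, 970 and 1380 at 4 °C. The groups did not overlap in either genotype, although the mice at 30 °C differed widely among themselves in CTRL. The log2 difference was -3.64 ± 0.68 (SE) in CTRL (adjusted p = 0.000348) and -2.64 ± 0.56 in BATKO (adjusted p = 0.00148).

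Jun, the main dimer partner within AP-1, had 1640, 1740, 1930 and 4380 normalized counts in CTRL mice at 30 °C and 342, 379 and 569 at 4 °C. BATKO mice had 1690, 1960, 2190, 3020 and 3030 at 30 °C and 285, 731, 903 and 980 at 4 °C. All mice in the cold were below all mice at 30 °C, in both genotypes. Jun fell by 2.49 ± 0.42 on the log2 scale in CTRL (adjusted p = 0.000147) and by 1.71 ± 0.36 in BATKO (adjusted p = 0.0012). The exons of Jun overlap the antisense gene Junos over 232 bases, so that the origin of part of the reads is uncertain without the strand setting.

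Junb, a JUN protein often opposed to JUN in its effects, had 166, 174, 424 and 819 normalized counts in CTRL mice at 30 °C and 50.2, 111 and 124 at 4 °C. BATKO mice had 222 to 510 at 30 °C (median 295) and 44.7, 65.4, 93.1 and 115 at 4 °C. No mouse in the cold reached the lowest mouse at 30 °C of its genotype. The differences were -2.06 ± 0.52 (adjusted p = 0.00364) and -2.01 ± 0.46 (adjusted p = 0.00229). Junb shares 173 exonic bases with Prdx2 on the other strand, and its counts carry the same uncertainty as those of Jun.

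Fos and Fosb encode the FOS partners of AP-1. Fos had 822, 1280, 1640 and 4400 normalized counts in CTRL mice at 30 °C and 150, 291 and 689 at 4 °C, without overlap. It fell by 2.44 ± 0.72 on the log2 scale (adjusted p = 0.00986). In BATKO mice the values were 658, 1260, 1670, 1770 and 1930 at 30 °C and 119, 418, 542 and 1240 at 4 °C. The highest of the 4 cold BATKO mice was above the lowest mouse at 30 °C, and the difference of -1.33 ± 0.60 was not called (adjusted p = 0.0856). Fosb spanned 227 to 3840 normalized counts in CTRL mice at 30 °C and 45.4, 45.5 and 693 at 4 °C. Its differences of -2.44 ± 1.19 in CTRL (adjusted p = 0.101) and -2.26 ± 1.02 in BATKO (adjusted p = 0.0905) were as large as those of Fos and Junb but were not called, and in both genotypes the values at 4 °C and 30 °C overlapped.

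Atf3, a stress-induced member of the ATF family, and Ier2, a small nuclear protein, were lower in both genotypes. In CTRL mice, Atf3 had 84.2, 329, 354 and 572 normalized counts at 30 °C and 68.9, 74.8 and 76.0 at 4 °C, with a difference of -2.19 ± 0.69 (adjusted p = 0.0153). In BATKO mice it had 25.6, 265, 301, 353 and 575 at 30 °C and 49.4, 81.2, 82.3 and 89.0 at 4 °C, with a difference of -2.01 ± 0.60 (adjusted p = 0.0136). The groups of BATKO mice overlapped through mouse 13, which was the lowest at 30 °C. Ier2 fell by 1.65 ± 0.46 in CTRL (adjusted p = 0.00685) and by 1.52 ± 0.40 in BATKO (adjusted p = 0.00597), on the log2 scale. BATKO mice had 341 to 666 normalized counts of Ier2 at 30 °C and 81.2 to 198 at 4 °C, whereas a CTRL mouse at 4 °C, with 188, was just above the lowest at 30 °C, with 186.

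Among the NR4A receptors, Nr4a1 was called lower in CTRL mice, and neither Nr4a2 nor Nr4a3 was called in the cold. Nr4a1 had 1820, 2230, 2440 and 6550 normalized counts in CTRL mice at 30 °C and 189, 851 and 937 at 4 °C, with a log2 difference of -2.31 ± 0.75 (adjusted p = 0.0174). This call was lost without CTRL mouse 5 at 4 °C or without CTRL mouse 20 at 30 °C, which had the lowest and the highest value. In BATKO mice, Nr4a1 had 2030 to 5410 at 30 °C (median 3770) and 164, 1500, 2740 and 2780 at 4 °C, with a difference of -1 ± 0.62 that was not called (adjusted p = 0.212). Nr4a2 differed by -0.25 ± 0.39 in CTRL and by 0.56 ± 0.33 in BATKO, and Nr4a3 by -1.25 ± 0.86 and -0.38 ± 0.72, none of them called. The response of Nr4a1 did not pass the test of a difference between genotypes (1.31 ± 0.93, adjusted p = 0.471), and the genes were not tested against each other.

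**Figure D1:**
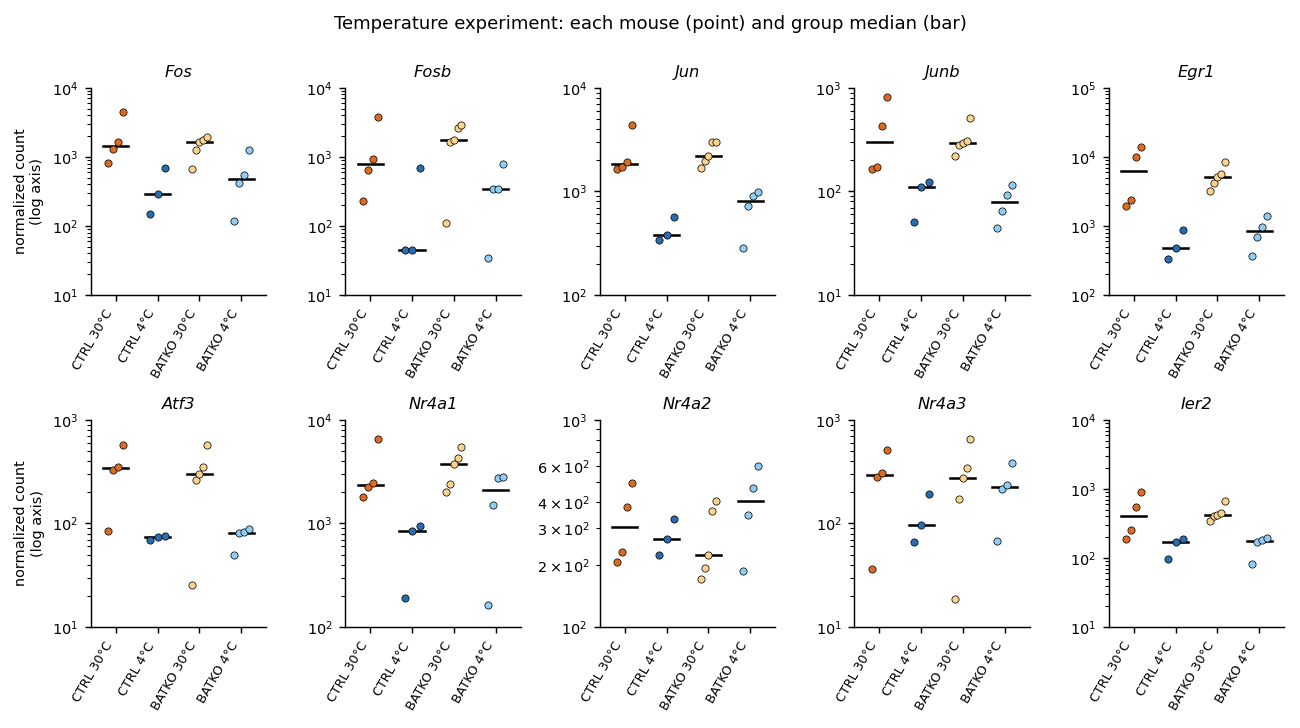
Normalized counts (log axis) of the 10 genes in each mouse of the temperature experiment, with a bar at the group median. The cold groups lie below the 30 °C groups without overlap for Egr1, Jun and Junb in both genotypes, whereas the 4 groups overlap for Nr4a2 and Nr4a3.

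The genotype had no called effect on any of the 10 genes in this experiment. At 4 °C, 0 of 10 genes were called between BATKO and CTRL mice with edgeR, beside 2.16% of all genes, and at 30 °C 0 of 10 were called beside 0.00754% of all genes. The difference of the cold response between genotypes was called for 0 of 10 genes, beside 1.12% of all genes. In these 3 comparisons no member had an unadjusted p under 0.05, and DESeq2 also called 0. All 10 differences of the cold response (BATKO minus CTRL) were positive, from 0.05 ± 0.67 for Junb to 1.31 ± 0.93 for Nr4a1 on the log2 scale, and none was called. The genes share their mice, so that a common sign is not 10 independent observations.

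Genes known to respond to cold were checked in the same libraries. Of 10 such genes, 8 were higher and 2 were lower at 4 °C in CTRL mice, and 8 were higher and 1 lower in BATKO mice. Elovl3, a fatty acid elongase of BAT, was higher by 10.33 ± 0.77 and 9.59 ± 0.68 on the log2 scale in CTRL and BATKO mice (adjusted p = 6.95e-08 and 1.53e-07), and the thermogenic uncoupling protein gene Ucp1 was higher by 3.43 ± 0.44 in BATKO mice. Markers of several cell types moved with the temperature. Of 5 brown adipocyte markers, Ucp1 among them, 4 were higher and 1 was lower at 4 °C in CTRL mice, and 4 were higher in BATKO mice, with summed levels of 5680 to 7060 CPM at 30 °C and 23600 to 27400 CPM at 4 °C in CTRL mice and of 5670 to 6880 and 16400 to 24800 CPM in BATKO mice. The summed level of red blood cell markers was 177 to 333 CPM at 30 °C and 766 to 1710 CPM at 4 °C in CTRL mice, and 182 to 494 and 771 to 1110 CPM in BATKO mice, with 3 of 5 markers called higher in both. Among 5 fibroblast markers, 2 were lower in CTRL mice and 1 in BATKO mice, and 0 of 5 skeletal muscle markers were called by edgeR. Of 5 endothelial markers, 2 were higher in CTRL mice, and 1 was higher and 1 lower in BATKO mice. Of 5 macrophage markers, 1 was lower in CTRL mice and 1 higher in BATKO mice, with summed levels of 60.7 to 100 CPM at 30 °C and 46.2 to 58.7 CPM at 4 °C in CTRL mice and of 45.3 to 59.6 and 48.9 to 86 CPM in BATKO mice. The 5 T and B cell markers did not pass the filter on low counts, and summed to 1.65 to 3.04 CPM at 30 °C and 0.369 to 0.79 CPM at 4 °C in CTRL mice, without overlap, and to 0.87 to 2.82 and 0.658 to 4.66 CPM in BATKO mice. The part of these cells in the lower levels of the 10 genes was not tested. Over 1000 CPM of summed muscle markers were CTRL mice 20 and 21 of the 4 at 30 °C. Among BATKO mice, these were 8 and 11 of the 4 at 4 °C and 13 and 17 of the 5 at 30 °C. Without these mice, and so with few left in those groups, the same number of genes, 7 in CTRL and 5 in BATKO mice, were called lower. The called differences were smaller in size there, from -1.41 for Ier2 to -3.41 for Egr1 in CTRL mice, with Fos and Jun at -1.97, Junb at -1.65, Atf3 at -1.56 and Nr4a1 at -1.82, and from -1.3 for Ier2 to -2.38 for Egr1 in BATKO mice.

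Other genes of the same early response went the same way. Of 17 further immediate early genes, 14 passed the filter on low counts, and 10 of them were lower at 4 °C in CTRL mice and 12 in BATKO mice, with none higher. Their median log2 differences were -1.56 and -1.90. The growth regulator Myc fell by 3.53 ± 0.44 in CTRL (adjusted p = 7.37e-06) and by 3.40 ± 0.37 in BATKO (adjusted p = 3.97e-06), on the log2 scale. Btg2, an antiproliferative gene, fell by 3.74 ± 0.65 and 2.97 ± 0.54, and the small GTPase gene Rhob by 1.09 ± 0.18 and 0.93 ± 0.15. The zinc finger gene Egr3 differed by -5.3 ± 0.90 in CTRL mice (adjusted p = 0.000142). Of 14 tested feedback genes, whose products limit this response, 3 were lower and 1 was higher in CTRL mice, beside 22.6% and 26.5% of all genes, and 2 were lower and 1 was higher in BATKO mice, beside 18.9% and 21.4%. The lower ones included Zfp36, which speeds the decay of short-lived mRNAs, at -2.32 ± 0.44 and -2.05 ± 0.38, and the EGR corepressor gene Nab2, at -1.34 ± 0.51 and -1.41 ± 0.42, whereas the ERK phosphatase gene Dusp6 rose by 0.82 ± 0.28 and 0.88 ± 0.24. Of 14 upstream factors, 1 was higher and 3 were lower in CTRL mice, and 3 were higher and 2 lower in BATKO mice, shares near or below those of all genes in either direction. The higher gene in CTRL mice was Prkaca, the catalytic subunit of protein kinase A, at 1.00 ± 0.23 (adjusted p = 0.00182), and the lower ones were Elk4, Crtc3 and Mrtfb.

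In the diet experiment, 3 of the 10 genes were lower under HFD than under chow in CTRL mice (Jun, Atf3 and Nr4a1), and none was higher, beside 2.04% of the 12932 genes tested that were called lower. The median log2 difference of the 10 genes was -1.09, beside 0.01 over all genes. In 5 of the 10 genes (these 3 with Nr4a2 and Nr4a3), every mouse under HFD was below every mouse under chow, a pattern shown by 5.58% of all genes.

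Atf3 ranked 5th by p among all genes tested in CTRL mice. Its values were 284, 457, 503 and 587 normalized counts under chow and 50.3, 77.1, 84.7 and 122 under HFD. The groups were far apart, and Atf3 fell by 2.45 ± 0.28 on the log2 scale (adjusted p = 0.000859). In BATKO mice it had 270 and 349 under chow and 76.4, 120 and 175 under HFD, again without overlap, as 17.3% of all genes did with only 2 and 3 mice. This difference of -1.33 ± 0.35 was not called by edgeR (adjusted p = 0.124).

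Of the 3 NR4A genes, Nr4a1 was called lower under HFD in CTRL mice. It had 1440, 2100, 2300 and 3200 normalized counts under chow and 337, 538, 541 and 620 under HFD, and fell by 2.15 ± 0.46 on the log2 scale (adjusted p = 0.0211). Nr4a2 had 193, 312, 350 and 572 under chow and 97.9, 101, 103 and 177 under HFD, and Nr4a3 had 292, 349, 473 and 885 under chow and 71.5, 147, 202 and 227 under HFD. Neither pair of groups overlapped, and the differences of -1.57 ± 0.46 (adjusted p = 0.0711) and -1.62 ± 0.45 (adjusted p = 0.0585) just missed the threshold. The call of Nr4a1 was lost without HFD mouse 11 or chow mouse 2.

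Jun had 1520, 1570, 1880 and 2310 normalized counts under chow and 663, 754, 773 and 1080 under HFD, and fell by 1.15 ± 0.26 on the log2 scale (adjusted p = 0.0258). It lost its call when HFD mouse 7, 10 or 11 or chow mouse 2 was left out. Egr1 differed by -1.03 ± 0.42 and Ier2 by -0.77 ± 0.22, and neither was called (adjusted p = 0.176 and 0.067). For both, HFD mouse 9 was the highest of its group, with 1420 normalized counts of Egr1 beside 254, 394 and 413, and 298 of Ier2 beside 126, 145 and 146. Fos, Fosb and Junb showed no such separation, with differences of -0.25 ± 0.62, -0.36 ± 0.71 and 0.06 ± 0.37. Fos had 98.3, 124, 145 and 811 normalized counts under HFD, and the value of 811 belonged to HFD mouse 9 as well.

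**Figure D2:**
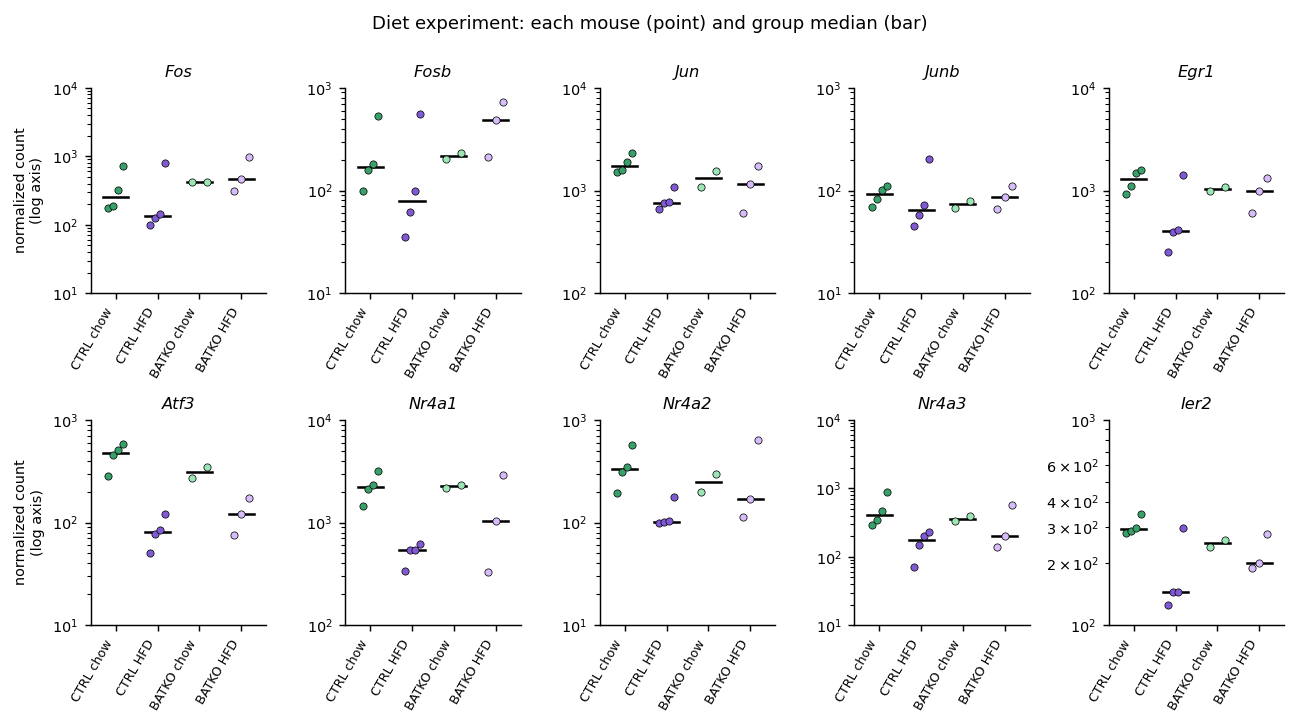
Normalized counts (log axis) of the 10 genes in each mouse of the diet experiment, with a bar at the group median. In CTRL mice Atf3, Jun, Nr4a1, Nr4a2 and Nr4a3 do not overlap between chow and HFD, and a single HFD mouse stands above its group for Fos, Fosb, Junb, Egr1 and Ier2.

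In BATKO mice, 0 of 10 genes were called between HFD and chow with edgeR, beside 0.0387% of all genes that were called lower, while 1 gene had an unadjusted p under 0.05 and DESeq2 called 1 (Atf3 in both cases). Between genotypes, 0 of 10 genes and 0% of all genes were called under HFD, 0 of 10 and 0% under chow, and 0 of 10 and 0% for the difference of the diet response. At an unadjusted p under 0.05, these comparisons gave 2, 0 and 3 of the 10 genes and 691, 1024 and 740 of all genes, and DESeq2 called none of the 10. Under HFD, Nr4a1 was at 330, 1040 and 2880 normalized counts in BATKO mice, a range that contained that of CTRL mice (log2 difference 1.47 ± 0.48, adjusted p = 0.884). The 10 differences of the diet response were again all positive, from 0.20 ± 0.61 for Junb to 1.85 ± 0.74 for Nr4a2, and none was called with 2 and 3 BATKO mice.

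Of 14 further immediate early genes tested, 7 were lower under HFD in CTRL mice and none was higher, beside 2.04% lower and 1.89% higher of all genes, which are also the shares to set beside the next lists. They included Arc (-2.93 ± 0.29, adjusted p = 0.000273), Egr3 (-3.29 ± 0.47, adjusted p = 0.00209) and the matricellular genes Ccn1 (-1.96 ± 0.27) and Ccn2 (-1.14 ± 0.21). Of 14 feedback genes, 3 were lower, namely Spry4 and Dusp1, which limit ERK and MAP kinase signalling, and Sik1, a kinase gene induced by cAMP (-1.47 ± 0.25, -1.29 ± 0.23 and -1.95 ± 0.36). Of 14 upstream factors, Srf was lower (-0.87 ± 0.22) and its partner Mrtfa was higher (1.04 ± 0.22). The summed muscle markers were 0.741 to 1970 CPM under chow and 0.762 to 505 CPM under HFD in CTRL mice, with 0 of 5 called by edgeR, and 2 of 5 fibroblast markers were higher under HFD. Summed macrophage markers were 57.5 to 69.1 CPM under chow and 83.4 to 229 CPM under HFD, and summed T and B cell markers, which did not pass the filter, 1.38 to 2.83 and 0.254 to 0.562 CPM, both without overlap, and none of the 5 macrophage markers was called. Their part in the lower levels of the 10 genes was not tested. The mice over 1000 CPM of muscle markers were 3 and 4 of the 4 CTRL mice on chow and BATKO mouse 15 on HFD. Without them, and so with few CTRL mice left on chow, Jun, Atf3 and Nr4a1 were still the 3 genes called, at -1.23, -2.38 and -2.19.

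After TH, few of the 10 genes were called in WT mice, and those called were lower. At 3 h, the earliest time taken, 0 of 10 genes were called with edgeR, beside 4.09% of the 13003 genes tested that were called lower, with 0 at an unadjusted p under 0.05 and 0 in DESeq2. At 6 h, 0 of 10 were called beside 10.9% lower, 3 had an unadjusted p under 0.05 (Jun, Junb and Nr4a2) and DESeq2 called 1 (Junb). At 12 h, 2 of 10 were lower (Junb and Nr4a3) beside 12.1%, and at 24 h 3 of 10 were lower (Nr4a1, Nr4a2 and Nr4a3) beside 15.5%. With 10 genes, these shares of called genes at 12 h and 24 h were near those of all genes, and the genes were not tested against each other. An unadjusted p under 0.05 was reached by 7 of the 10 at 12 h, all lower, beside 4783 of the 13003 genes. At 24 h it was reached by 3 of the 10 beside 5518. At 12 h, Fos, Jun and Nr4a1 just missed the threshold, with an adjusted p of 0.0584, 0.0572 and 0.0518 in edgeR. Over any time point, 2 of 10 genes changed (Nr4a2 and Nr4a3), beside 42.4% of all genes, a larger share. The median log2 differences of the 10 genes were -0.33, -0.92, -1.35 and -0.98 at 3, 6, 12 and 24 h, beside -0.02 to 0.01 over all genes, and since the 4 comparisons share the PTU mice, they are not independent. Of 5 brown adipocyte markers, 3 were lower and 1 higher at 12 h, and 4 were lower and 1 higher at 24 h, where Adipoq, the adipocyte hormone gene, fell by 2.14 ± 0.13 on the log2 scale (adjusted p = 1.18e-10) and Ucp1 was higher, both named after their values were seen. Of 5 skeletal muscle markers, 5 changed over any time point, although none was called at a single time against PTU, with summed levels of 56.1 to 556 CPM under PTU, 2.96 to 259 CPM at 12 h and 231 to 992 CPM at 24 h. Over any time point, 4 of 5 red blood cell markers changed, 2 of them higher at 3 h, as did 3 of 5 endothelial markers, 2 of 5 fibroblast markers and 1 of 5 macrophage markers. The part of these cells in the levels of the 10 genes was not tested.

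Nr4a3 had the largest difference. The PTU mice had 52.2, 484, 1200 and 1940 normalized counts, those at 3 h 91.9, 553, 710 and 1180, and those at 6 h 121, 209, 287 and 886. The values were 33.1, 42.2, 115 and 138 at 12 h and 13.7, 28.9, 124 and 128 at 24 h. PTU mouse B2, with 52.2, was the only PTU mouse within the range of the late groups. Nr4a3 fell by 3.50 ± 0.90 on the log2 scale at 12 h (adjusted p = 0.00609) and by 3.60 ± 0.89 at 24 h (adjusted p = 0.00359), and both calls held when any WT mouse was left out.

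Nr4a1 had 2040, 4850, 6860 and 8630 normalized counts under PTU, 580, 1270, 1710 and 2860 at 12 h and 135, 1270, 1890 and 2360 at 24 h. The lowest PTU mouse, again B2, lay within the range of the treated mice. The difference at 12 h was -1.80 ± 0.67 (adjusted p = 0.0518) and that at 24 h was -1.99 ± 0.67 (adjusted p = 0.0271), and the latter lost its call without PTU mouse B4 or B5, without mouse B26 at 24 h, in the fit of all 30 mice and without the mouse over 1000 CPM of muscle markers. Nr4a2 had 216, 795, 1090 and 1610 normalized counts under PTU and 159, 256, 258 and 326 at 24 h, and fell by 1.90 ± 0.48 on the log2 scale (adjusted p = 0.0042). This call was kept without any single WT mouse.

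Junb had 57.6, 73.3, 76.4 and 86.1 normalized counts under PTU and 30.5, 38, 38.8 and 51.4 at 12 h, without overlap, and differed by -0.86 ± 0.28 (adjusted p = 0.0285). The call was lost with any of 6 of the 20 WT mice left out (PTU mice B2, B3 and B4 and 12 h mice B19, B20 and B23) and in the fit of all 30 mice. Fos had 232, 238, 317 and 541 normalized counts under PTU and 66.2, 107, 119 and 135 at 12 h, also without overlap, with a difference of -1.61 ± 0.61 (adjusted p = 0.0584). Fosb was the other gene without overlap at 12 h, where 3 of the 10 genes and 12.3% of all genes had every treated mouse below every PTU mouse. Its PTU mice had 46.2 to 129 normalized counts and its 12 h mice 22.2 to 28.9, while at 6 h the range was 2.04 to 263. Fos, Fosb, Jun, Egr1, Atf3 and Ier2 were called at no time point, and Egr1 stayed between -0.82 ± 0.63 at 6 h and 0.16 ± 0.62 at 24 h.

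In BATKO mice, 0 of 10 genes and 0% of all genes were called 24 h after TH with edgeR, with 0 of the 10 and 673 of all genes at an unadjusted p under 0.05 and 0 of both in DESeq2. Fos shows how wide these groups were, with 26.8, 63.4, 86.1, 160 and 1300 normalized counts under PTU and 5.50, 34.2, 466, 701 and 1430 after TH. The difference of the 24 h response between genotypes was called for 0 of 10 genes, beside 12.3% of all genes, with 2 of the 10 at an unadjusted p under 0.05 and 0 in DESeq2. These were Nr4a2 (1.63 ± 0.63, adjusted p = 0.0862) and Nr4a3 (2.67 ± 1.19, adjusted p = 0.142). Under PTU, 4 of 10 genes were lower in BATKO than in WT mice, beside 33.9% of all genes. They were Atf3 (-1.98 ± 0.61), Nr4a1 (-2.26 ± 0.73), Nr4a2 (-1.77 ± 0.44) and Nr4a3 (-2.01 ± 0.79). The call of Nr4a3 was lost without WT mouse B5 or BATKO mouse 2 or 4 (adjusted p up to 0.14), and Nr4a1 differed by -3.2 without BATKO mouse 3. Markers differed as well, with 4 of 5 brown adipocyte markers lower and 1 higher, and 4 of 5 red blood cell and 4 of 5 endothelial markers higher and 1 lower in BATKO mice. Of 5 fibroblast markers, 3 were lower and 1 higher, and 1 of 5 macrophage markers was lower. Their part was not tested. With 9964 of 14178 genes called in either direction and deeper libraries in BATKO mice, this comparison cannot be told apart from one of 2 sets of libraries.

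**Figure D3:**
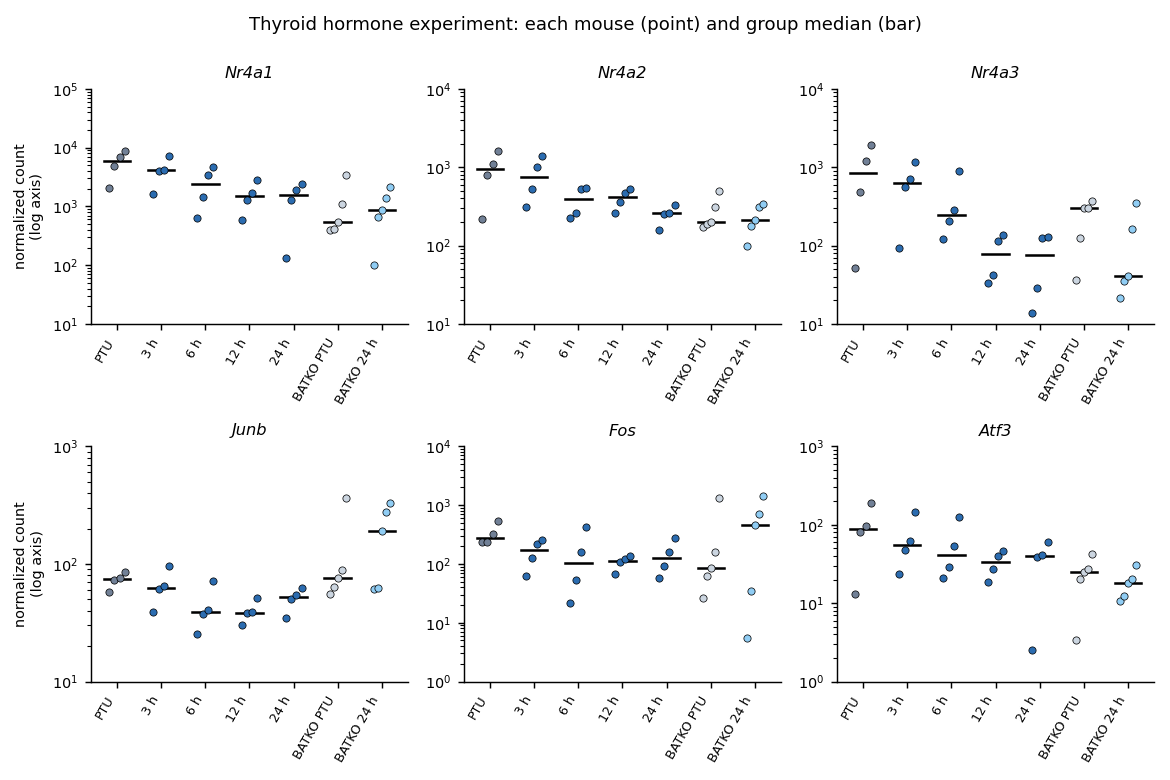
Normalized counts (log axis) of the 3 NR4A genes, Junb, Fos and Atf3 in each mouse of the TH experiment, with a bar at the group median; the first 5 groups are WT mice. Nr4a2 and Nr4a3 are low at 24 h in WT mice, and the BATKO groups of Fos go from 5.50 to 1430 normalized counts.

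Of the 13 further immediate early genes tested in WT mice, 1 was lower at 3 h (Btg2, at -1.38 ± 0.26, adjusted p = 0.00152), 3 at 6 h and 4 at 12 h, with 1 higher at 12 h. At 24 h, 5 were higher and 1 was lower. Of 14 feedback genes, 6 were lower and 2 higher at 12 h, and 3 were lower and 2 higher at 24 h. Over all genes, 5.1%, 12.1%, 13.6% and 17.2% were called higher at 3, 6, 12 and 24 h, beside 4.09%, 10.9%, 12.1% and 15.5% lower. The counts of feedback genes at 24 h were near these shares. Those of feedback genes lower at 12 h, and of immediate early genes lower at 6 h and 12 h and higher at 24 h, were above them. The lists were not tested as sets. Among the immediate early genes, Arc went from a mean of 3.45 normalized counts under PTU to 49.1 at 24 h, and Btg2 from 826 to 236. Of 14 upstream factors, Rps6ka3, a kinase that phosphorylates CREB, was the only one called at 3 h (-0.59 ± 0.13, adjusted p = 0.00504), while 1 was lower at 6 h, 2 were lower at 12 h, and 2 were higher and 4 lower at 24 h. Over any time point 7 of these 14 changed, near the share of 42.4% of all genes. Of 9 cold response genes tested, 3 were higher and 1 was lower at 3 h, 3 higher and 2 lower at 6 h, 2 higher and 2 lower at 12 h, and 2 higher and 3 lower at 24 h. At 3 h, Ucp1 and the deiodinase gene Dio2 were higher by 0.87 ± 0.21 and 1.84 ± 0.53 on the log2 scale (adjusted p = 0.0105 and 0.0337), the coactivator gene Ppargc1a by 1.42 ± 0.40, and the mitochondrial carrier gene Slc25a25 differed by -1.59 ± 0.36.

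**Figure D4:**
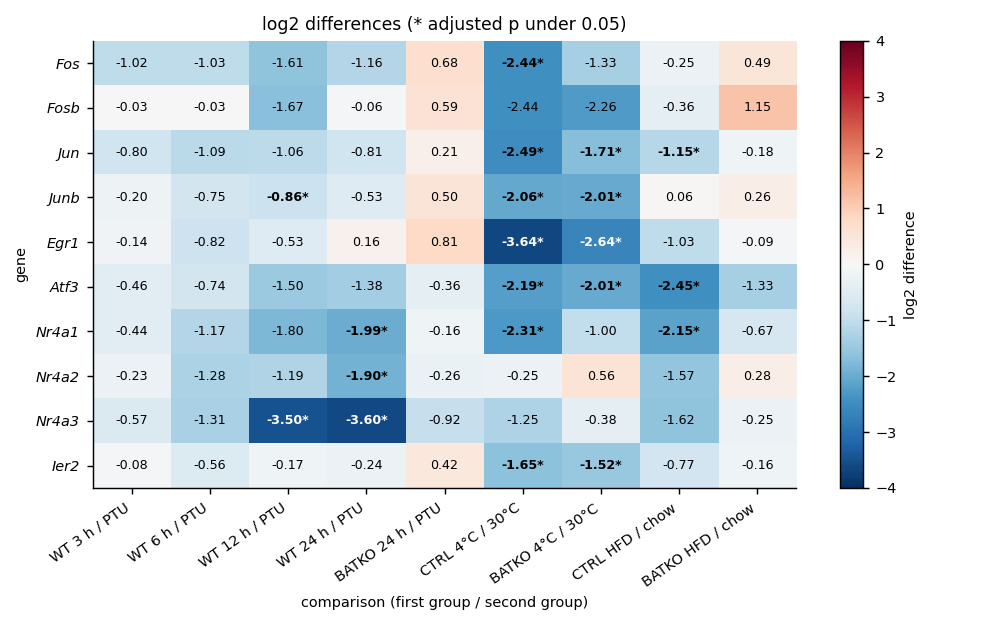
Log2 differences of the 10 genes (rows) in 9 comparisons (columns), written in each cell, with an asterisk and bold type for an adjusted p under 0.05 in edgeR. Every marked value is negative, with 7 in the cold in CTRL mice, 5 in BATKO mice, 3 under HFD in CTRL mice and 5 after TH in WT mice at 12 h and 24 h.

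Levels per length differed between genes, and their order was not the same in each setting. In WT mice under PTU, Nr4a1 had 122 ± 61.7 RPKM (reads scaled to exon length and library size, mean and SD, n = 4), Nr4a2 17.5 ± 10.9, Jun 16.5 ± 8.03, Egr1 16.1 ± 9.90, Nr4a3 11.7 ± 10.6 and Fos 10.8 ± 4.66, and these last 5 did not differ beyond their spread. Ier2 followed with 6.33 ± 1.37, then Atf3 with 3.34 ± 2.57, Junb with 2.43 ± 0.394 and Fosb with 0.985 ± 0.430. In CTRL mice at 30 °C, Egr1 came first with 145 ± 121 RPKM, before Nr4a1 with 85.6 ± 58.0, Fos with 79.7 ± 62.9 and Jun with 69.8 ± 37.7, and the spread of these 4 genes overlapped. Under chow, CTRL mice had 74.3 ± 23.8 RPKM of Nr4a1 and 65.9 ± 13.2 of Jun. Levels between experiments are side by side only, since the tables were normalized separately.

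Mice of the same group differed more in these genes than in most others. The biological coefficient of variation between mice was 0.91 for Fosb, 0.78 for Nr4a3 and 0.66 for Atf3 in WT mice, beside a median of 0.14 over the 13003 genes tested. In the 3 experiments, the 10 genes stood between the 79.3rd percentile (Ier2 in the diet experiment) and the 99.8th percentile (Fosb in WT mice) of all genes for this measure. Junb and Ier2 varied least in WT mice, at 0.24 and 0.29.

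This variation was shared. Over the 59 mice, log2 CPM minus the group mean was compared between Fos and each of the other 9 genes, and 7 of these 9 relations had an adjusted p under 0.05 (permutation of mice within groups, two-sided, 100000 resamples). Pearson's r with Fos was 0.85 for Egr1, 0.82 for Fosb, 0.81 for Junb, 0.72 for Ier2 and 0.70 for Jun, each with an adjusted permutation p of 1.8e-05 from a raw p of 1e-05, the smallest these permutations can give. Spearman's rho was 0.77, 0.88, 0.69, 0.67 and 0.72, with adjusted permutation p of 2.2e-05 to 3.6e-05. For these 5 genes, r was 0.60 to 0.90 within each experiment, and 0.69 to 0.86 without the 2 mice farthest from the median of Fos. The relation was weaker for Nr4a1 (r = 0.46, rho = 0.44, permutation p = 0.0048 and 0.0034, adjusted 0.0072 and 0.0051) and Atf3 (r = 0.27, rho = 0.31, permutation p = 0.024 and 0.026, adjusted 0.031 and 0.033). For Nr4a2, r was 0.27 (permutation p = 0.051, adjusted 0.058) and rho 0.32 (permutation p = 0.029, adjusted 0.033), and for Nr4a3, r was 0.02 and rho 0.11 (permutation p = 0.92 and 0.48, the same after adjustment). Without the 2 mice farthest for Fos, r was 0.50 for Nr4a1, 0.29 for Atf3, 0.32 for Nr4a2 and 0.12 for Nr4a3. Within the TH, temperature and diet experiments, r was 0.45, 0.61 and 0.36 for Nr4a1, 0.23, 0.45 and 0.35 for Atf3, 0.26, 0.43 and 0.21 for Nr4a2, and -0.16, 0.47 and 0.46 for Nr4a3.

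Among all 45 pairs of the 10 genes, the median r was 0.59 and 41 were positive. Junb with Ier2 (0.88), Egr1 with Ier2 (0.84) and Egr1 with Junb (0.83) were among the closest pairs. Atf3 and Nr4a3 were close to each other (0.77) but not to Egr1 (-0.02 and -0.15), and Nr4a1 was close to Jun (0.81) and Nr4a2 (0.76). The genes of a pair were measured in the same libraries, and share their depth.

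**Figure D5:**
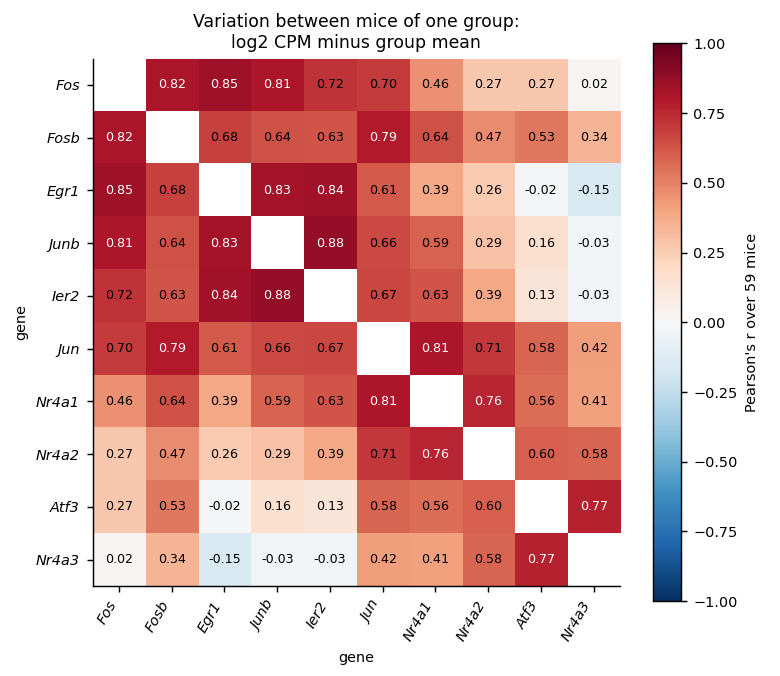
Pearson's r between each pair of the 10 genes over 59 mice, on log2 CPM minus the group mean, written in each cell. Fos, Fosb, Egr1, Junb, Ier2 and Jun form a block with r of 0.61 to 0.88, and Atf3 with Nr4a3 (0.77) lies outside it.

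The genes outside the list that varied most like Fos, among 8474 genes with a mean count above 50 in each table, were Ccn1 (r = 0.82), Zfp36 (0.81), Btg2 (0.66), Dusp1 (0.65) and Ppp1r15a (0.60). For Nr4a1 they were Irs2, an adaptor of the insulin receptor (0.86), Sik1 (0.73), the FOS-related gene Fosl2 (0.71), Dusp1 (0.70) and the histone demethylase gene Kdm6b (0.67).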

How the data were processed

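RNA-seq of the BAT of 59 male mice in 3 experiments was analysed, with groups taken from the sample labels and 0 columns left unmatched. The values deposited by the authors are whole-number raw counts per gene, without normalization. The methods describe mapping of downloaded reads to GRCm38 (mm10) with Bowtie, removal of reads of alignment quality under 10, and htseqcount, and do not state whether the deposited counts were made in exactly this way. The processing notes in the labels name Bowtie2 (version 2.3.2.2) and DESeq2. The annotation and the strand setting are not given in the sources used here. The 10 genes and all gene and marker lists were chosen with earlier results of these data known. Every one of the 10 genes was described in each comparison. From the other lists, at most 4 called genes of lowest adjusted p were named, in WT mice at 3 h or over any time point, in the cold in both genotypes and under HFD in CTRL mice. Adipoq and Ucp1 at 24 h in WT mice were exceptions, named after their values were seen.

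Tests used edgeR (version 4.0.16, R version 4.3.3), with TMM normalization, a floor of 10 on the mean normalized count, the quasi-likelihood F test and Benjamini-Hochberg adjustment over all genes tested. The WT time course was fitted on 20 mice, comparisons with BATKO mice of the TH experiment on 30, and the temperature and diet experiments on 16 and 13. Standard errors were derived from the F statistic. Log2 CPM had a prior count of 2, and RPKM used merged GENCODE exons. Alternatives were DESeq2 (version 1.42.0), its size factors, other filters, no mitochondrial genes, fits of fewer or more groups, and each mouse left out. Leaving out mice with over 1000 CPM of summed skeletal muscle markers was chosen after seeing the data. The procedures were tested on simulated data. Each library is labelled as a mouse of its own, and in 91 within-group pairs the chi-square per degree of freedom was at least 6.81, beyond sampling noise.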

Additional observations from a re-analysis of the deposited data

Results flagged for a closer look

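Of 120 tests of a gene in a group of 4 to 5 mice, 21 had a highest mouse far from the others by Dixon's test on normalized counts. The nominal rate of this test, 1 in 20, holds for normally distributed values. These counts varied widely and were not put on a log scale, so that the 21 cannot be set against that rate. The 10 genes also vary together, so that these are not separate observations. The 21 values came from 8 mice. BATKO mouse 3 under PTU stood above its group in 7 genes, with 1300 normalized counts of Fos, 459 of Fosb, 822 of Jun, 363 of Junb, 3210 of Egr1, 3390 of Nr4a1 and 381 of Ier2. CTRL mouse 9 under HFD did so in 5 genes, with 811 of Fos, 557 of Fosb, 205 of Junb, 1420 of Egr1 and 298 of Ier2. WT mouse B17 at 6 h had 263 of Fosb, 517 of Jun and 136 of Ier2, and CTRL mouse 20 at 30 °C had 4380 of Jun and 6550 of Nr4a1. The remaining values were 622 of Fosb in BATKO mouse 9 at 24 h after TH, 510 of Junb in BATKO mouse 14 at 30 °C, 177 of Nr4a2 in CTRL mouse 10 under HFD and 143 of Ier2 in WT mouse B26 at 24 h.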

How the results depend on the processing

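No called difference of the 10 genes turned its sign in the alternatives run, whereas differences that were not called did so with a mouse or the mice high in muscle markers left out. Values here are numbers of the 10 genes called, beside those of the main test. Without a filter on the mean count, 3 were called at 6 h (main 0), 7 at 12 h (2), 6 at 24 h (3) and 7 over any time point (2) in WT mice, 1 for the difference of the 24 h response (0), 7 under HFD in CTRL mice (3), 1 in BATKO mice (0), 2 between genotypes under HFD (0) and 3 for the difference of the diet response (0). A floor of 50 gave 3 at 6 h. DESeq2 gave 1 at 6 h, 5 under HFD in CTRL and 1 in BATKO mice. Fits of the compared groups only gave 1 at 6 h, 6 at 12 h and 5 under HFD in CTRL mice, and the fit of all 30 mice gave 1 at 12 h. The causes were not tested. With each mouse left out in turn, the number went from 0 to 3 at 6 h, 1 to 6 at 12 h, 2 to 5 at 24 h, 2 to 5 over any time point, 0 to 3 for the difference of the 24 h response, 3 to 6 between genotypes under PTU, 6 to 8 in the cold in CTRL and 5 to 6 in BATKO mice, and 1 to 5 under HFD in CTRL mice. The last count was 1 without HFD mouse 11 or chow mouse 2 and 5 without HFD mouse 9 or BATKO HFD mouse 12, and without PTU mouse B2 it was 5 at 12 h and 5 at 24 h. With a chow mouse of BATKO left out, the lone one was assumed to vary like the other groups.

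Over all genes, the number called moved by more than 1.5 times in some comparisons. Between genotypes at 4 °C, 286 genes became 649 with DESeq2, 61 with the compared groups only and 97 without the mice high in muscle markers. At 30 °C, 1 became 8 with DESeq2 and 0 without those mice, and for the difference of the cold response 149 became 690 and 6. In the cold in BATKO mice, 5340 became 2216 without those mice. Under HFD, 509 genes in CTRL mice became 873 with DESeq2, 1280 without a filter and 321 with the compared groups only, and 9 in BATKO mice became 266, 336 and 66, and 4 without the mice high in muscle markers. Between genotypes, 0 became 12 with DESeq2 and 59 without a filter under HFD, 33, 290 and, with the compared groups only, 114 under chow, and 216 without a filter for the difference of the diet response. With each mouse left out in turn, the number went from 684 (without PTU mouse B3) to 1453 at 3 h in WT mice (main 1195), 53 to 565 between genotypes at 4 °C (without CTRL mice 2 and 5 at 4 °C), 5 to 907 for the difference of the cold response (without CTRL mice 1 and 5 at 4 °C), 166 (without chow mouse 2) to 716 under HFD in CTRL mice, 0 to 55 in BATKO mice, and, without HFD mouse 10, up to 10 and 117 between genotypes under HFD and chow. The percentages of all genes in the report move with these counts. No paired analysis was possible because the replicate numbers shared by groups belong to different mice, and no label says that a number marks a litter, batch or day.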
